A study of Mus musculus with 16 samples.

Results

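The 45 genes described here encode the proteins that bring pyruvate and fatty acids to oxidation in mitochondria, from the pyruvate dehydrogenase complex and the tricarboxylic acid (TCA) cycle to fatty acid uptake, the carnitine shuttle, beta-oxidation and the electron transfer flavoprotein. They are a fixed list of names, and all 45 were found among the 24421 genes counted and passed the filter on low counts in each comparison. Poly(A) RNA had been sequenced from the gastrocnemius (Gas), a muscle of mostly fast fibers, and the soleus (Sol), a muscle rich in slow fibers. There were 3 wild type (WT) and 5 LSD1-mKO libraries in each muscle, 16 in all. The mice were male C57BL/6 animals of 8 weeks. WT mice carried floxed *Lsd1* alleles without a Cre transgene. LSD1-mKO mice were *Lsd1* flox/flox and carried in addition *ACTA1*-CreERT2, a tamoxifen-inducible Cre recombinase driven by the human *ACTA1* promoter, which is active in skeletal muscle fibers. Tamoxifen (75 mg/kg, 5 days) and the synthetic glucocorticoid dexamethasone (Dex, 1 mg/kg, 7 days) were given to both genotypes, Dex being begun before tamoxifen ended, and the animals were fasted before the muscles were taken. All groups therefore came from Dex-treated, fasted animals, and muscle without Dex was not analysed here.

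Pyruvate from glycolysis enters the TCA cycle through the pyruvate dehydrogenase complex, which its kinases switch off and its phosphatases switch on. Fatty acids are freed from circulating triglyceride by lipoprotein lipase, taken up, activated to acyl-CoA, carried into the mitochondrion as carnitine esters and shortened step by step by beta-oxidation, whose electrons reach the respiratory chain through the electron transfer flavoprotein. Slow oxidative fibers are known to rely on these routes more than fast glycolytic fibers do, and fasting and glucocorticoids are known to raise the kinase gene *Pdk4*.

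The libraries held between 10130415 and 24576377 reads assigned to genes. Values are given in CPM, which sets a gene's reads against the scaled size of its library, on 1 scale for the 16 libraries. *Kdm1a*, the gene of LSD1, stood at 40.6, 37.8 and 44.2 CPM in WT Gas, 13.5, 13.6, 17.9, 14.8 and 11.9 in LSD1-mKO Gas, 34.2, 34.5 and 33.5 in WT Sol and 11.2, 9.15, 12.2, 9.12 and 12.8 in LSD1-mKO Sol. It was lower in every LSD1-mKO library, by -1.56 on the log2 scale in Gas (SE 0.178, adjusted p = 0.0177 by edgeR's quasi-likelihood test) and by -1.66 in Sol (SE 0.143, adjusted p = 0.000574). The summed CPM of 6 slow fiber markers, which tell the muscles apart, was at most 2093 in a Gas library and at least 19620 in a Sol library. Of the libraries, 3 stood apart from their groups. WT Gas 3 lay alone on the first principal component of the Gas libraries and had a mean log2 CPM of ribosomal protein genes of 8.57, beside 7.15 to 7.95 in the other Gas libraries. WT Sol 2 had 7.30 by the same measure, beside 6.44 to 6.86 in the other Sol libraries, and LSD1-mKO Sol 1 had the lowest CPM of its group for many of the 45 genes. Counts of genes that rest on these libraries are therefore also given without them, a setting chosen after seeing the data. The labels number the libraries but do not say that each came from a separate mouse, and the study's description of its Sol data names fewer LSD1-mKO mice than there are LSD1-mKO Sol libraries here. The p-values therefore measure the spread between these libraries, which may be in part technical. In bulk muscle, fewer cells of a type and less RNA per cell cannot be told apart.

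RefSeq promoters of GRCm38.p6 were matched to 39 of the 45 genes, with 48 promoters. *Idh3a*, *Pdp1*, *Cpt1b*, *Acaa2*, *Decr1* and *Lpl* were not matched. The 250 bases before each start were searched on both strands for 8 motifs. They were the GC box (GGGCGG), the CCAAT box, the TATA box (TATAAA), the half-site of estrogen-related receptors (AAGGTCA), a forkhead site (GTAAACA), and, by their consensus, the DR1 repeat read by PPAR and RXR, the glucocorticoid receptor palindrome and the NRF1 site. Each copy in the DR1 repeat holds the last 6 letters of the half-site, so that the 2 can overlap. A GC box was found in 27 of the 48 promoters (56.2%), beside 32.7% of all 32851 promoters, and CCAAT in 22 (45.8%), beside 33.8%. The half-site of estrogen-related receptors was found in 1 promoter (2.08%), that of *Acadm*, beside 4.08% of all, and the NRF1 site in 1, that of *Etfdh*, beside 0.782%. The TATA box, the DR1 repeat, the palindrome and the forkhead site were each found in 0 of the 48, beside 12.4%, 0.0335%, 0.387% and 3.17% of all promoters. The median GC content of the 48 promoters was 59%, beside 52.4% for all. The promoters shown next are those of 4 genes the results below turn on: *Pdk3*, the gene called between genotypes, *Pdk4*, the gene with the highest level per length, *Acadl*, whose genotype difference took opposite signs in the 2 muscles, and *Acadm*, which held the half-site. Each runs 5′ to 3′ on the gene's strand, which is the minus strand for all 4, and stops before the first annotated exon. Capitals mark the GC boxes (GGGCGG or, on the other strand, CCGCCC) and CCAAT boxes (or, on the other strand, ATTGG) and, in *Acadm*, the half-site, which lies there as TGACCTT. They lie at chrX:93832202-93832400 (*Pdk3*), chr6:5496310-5496528 (*Pdk4*), chr1:66863310-66863559 (*Acadl*) and chr3:153944644-153944893 (*Acadm*) of GRCm38.p6.
*Pdk3*: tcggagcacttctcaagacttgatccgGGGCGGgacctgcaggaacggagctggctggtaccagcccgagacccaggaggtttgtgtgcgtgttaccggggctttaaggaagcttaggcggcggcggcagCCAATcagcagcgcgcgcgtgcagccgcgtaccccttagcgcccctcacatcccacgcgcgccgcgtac
*Pdk4*: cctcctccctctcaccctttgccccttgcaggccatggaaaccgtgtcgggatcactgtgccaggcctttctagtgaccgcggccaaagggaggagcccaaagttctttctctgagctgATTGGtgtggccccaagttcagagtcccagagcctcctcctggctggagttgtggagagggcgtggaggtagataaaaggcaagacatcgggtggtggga
*Acadl*: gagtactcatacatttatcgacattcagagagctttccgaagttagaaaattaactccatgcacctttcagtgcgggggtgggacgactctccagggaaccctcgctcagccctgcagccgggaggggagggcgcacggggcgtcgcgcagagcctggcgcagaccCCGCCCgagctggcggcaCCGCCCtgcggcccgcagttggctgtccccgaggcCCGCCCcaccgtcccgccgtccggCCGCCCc
*Acadm*: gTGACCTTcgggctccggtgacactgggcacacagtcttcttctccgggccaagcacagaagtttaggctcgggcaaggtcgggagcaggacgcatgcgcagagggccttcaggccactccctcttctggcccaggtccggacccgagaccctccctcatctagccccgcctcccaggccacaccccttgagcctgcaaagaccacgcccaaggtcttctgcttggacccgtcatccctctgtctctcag
The 4 GC boxes of *Acadl* lie close together near the start, and *Pdk4* shows 1 CCAAT box and no GC box. A match is a description of the letters and was not tied to any change in these muscles.

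Per kilobase of exon, *Pdk4*, the kinase induced by fasting, had the highest mean level of the 45 genes in each of the 4 groups, at 1133 ± 412.0 CPM per kb in WT Gas (SD, n = 3), 1213 ± 496.5 in LSD1-mKO Gas (n = 5), 1775 ± 196.8 in WT Sol (n = 3) and 1293 ± 332.5 in LSD1-mKO Sol (n = 5). *Fabp3*, the fatty acid binding protein of muscle and heart, ranked 2 in each group by this length. Its levels were 421 ± 125.5, 493 ± 89.0, 1227 ± 63.3 and 1234 ± 191 CPM per kb in the same order. In WT Gas the means of *Fabp3* and *Etfb* (346 ± 183.5 CPM per kb) lay within 1 SD of each other. With the longest transcript as the length, *Fabp3* ranked 4 in WT Gas, 3 in LSD1-mKO Gas and 2 in each Sol group. *Pdk4* ranked 1 in every group by that length as well. The levels that follow are again per kilobase of exon. The libraries' values of *Pdk4* and *Fabp3* did not overlap in either Gas group or in WT Sol, while in LSD1-mKO Sol the means of both lay within 1 SD of each other. *Idh2*, the NADP-dependent isocitrate dehydrogenase of mitochondria, ranked 19 in WT Gas and 7 in LSD1-mKO Gas but 4 in WT Sol and 3 in LSD1-mKO Sol. At the other end stood *Pdk3*, with 0.528, 1.14, 0.813 and 2.77 CPM per kb, and *Cpt1b*, the muscle form of carnitine palmitoyltransferase 1. *Cpt1b* had only 4 to 119 reads per library, and 81.4% of its exon bases are shared with a readthrough gene in the annotation, so that reads of this locus may have been left out by the counting and its values are uncertain. *Etfb* (58.2%), *Acadvl* (42.9%), *Fabp3* (19.6%) and *Pdha1* (16.1%) also share exon bases with neighbouring genes, and with no strand option named for the counting their reads there cannot be assigned with certainty.

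**Figure D1:**
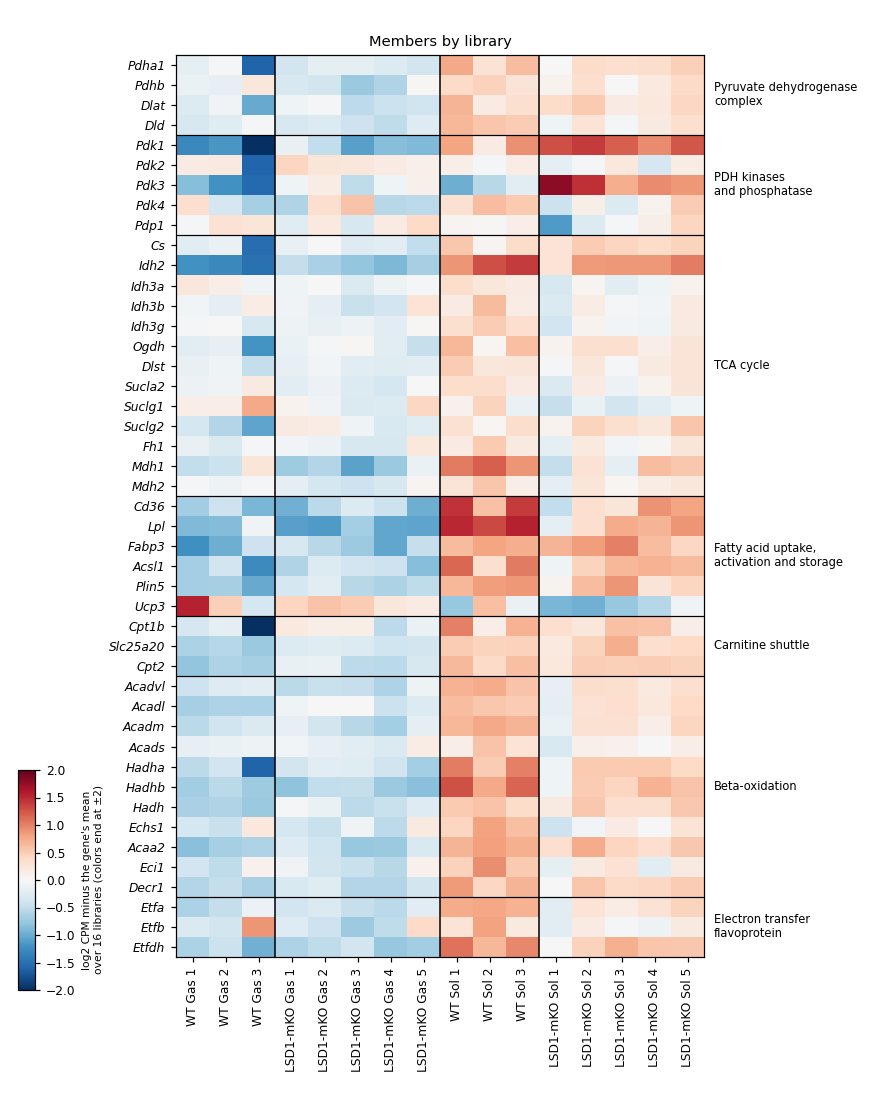
Level of each of the 45 genes in each of the 16 libraries, as log2 CPM minus the gene's mean over all libraries, with genes in rows by role and libraries in columns by group; the colors end at 2 on either side. Most genes are high in the 3 WT Sol libraries, lower in the 5 LSD1-mKO Sol libraries and low in the 8 Gas libraries.

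The first question was how these genes differ between a slow and a fast muscle. In WT mice, Sol held more of nearly all of these transcripts than Gas. Together the 45 genes took 3.72% to 3.87% of the reads in WT Sol and 1.49% to 1.77% in WT Gas. The test over the 16 libraries called 30 of the 45 higher in Sol and 0 lower, while it called 17% of the 13749 genes tested, 8.75% higher and 8.25% lower. The median log2 fold change of the 45 was 0.91, beside -0.01 for all genes tested. Of the roles, 10 of 11 beta-oxidation genes, 3 of 3 carnitine shuttle genes, 5 of 6 genes of fatty acid uptake, activation and storage, 3 of 4 subunits of the pyruvate dehydrogenase complex, 6 of 13 TCA cycle genes, 2 of 3 genes of the electron transfer flavoprotein and 1 of 5 kinases and phosphatases were called higher. The tables of Gas and Sol were deposited separately, and muscle and preparation of the libraries cannot be told apart. A fit on the 6 WT libraries alone called 19 of the 45. Lost in it were the calls of *Cs*, *Ogdh*, *Dlst*, *Dld*, *Suclg2*, *Mdh1*, *Pdha1*, *Dlat*, *Cpt1b*, *Echs1* and *Eci1*. With the mean ribosomal protein level as a covariate, 7 of the 30 calls were lost, those of *Cs*, *Ogdh*, *Dlst*, *Suclg2*, *Pdha1*, *Dlat* and *Cpt1b*, and 6 other genes were called. This level itself differed between the muscles, at 7.23 to 8.57 in WT Gas and 6.44 to 7.30 in WT Sol. The covariate can therefore take up part of the muscle difference, here and for the single genes below. The endothelial markers summed to between 219.5 and 399.8 CPM in WT Gas and between 362 and 544 in WT Sol. The macrophage markers summed to between 61.6 and 70.9 CPM in WT Gas and between 36.3 and 41.5 in WT Sol, without overlap, the Schwann cell markers to between 122 and 250 and between 55.4 and 154, the neutrophil markers to between 1.68 and 38.1 and between 1.39 and 6.87, and the fibroblast markers to between 1122 and 1532 and between 769.5 and 1130. All 4 macrophage, 4 Schwann cell and 3 neutrophil markers had a log2 fold change below 0 in Sol, 3 of the macrophage markers at an unadjusted p under 0.05, and none was called. All 5 endothelial markers lay above 0, and none of them was called. The part of these cell types in the values was not tested.

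In LSD1-mKO mice the same direction was seen. The 45 genes took 2.49% to 3.20% of the reads in LSD1-mKO Sol and 1.61% to 2.11% in LSD1-mKO Gas. The test called 26 higher in Sol and 1 lower, *Ucp3*, while it called 24.5% of all genes, 12.9% higher and 11.6% lower. The median log2 fold change was 0.60, beside 0.00 for all genes. Called higher in both genotypes were 24 genes. *Ogdh*, *Dlst*, *Suclg2*, *Cpt1b*, *Echs1* and *Eci1* were called in WT and not in LSD1-mKO, and *Pdhb* and *Pdk3* the other way round, but none of these 8 genes passed the test of the difference between genotypes, given below as the interaction. Without the 3 libraries that stood apart, 29 genes were called higher and 1 lower in WT, where 16.3% of all genes were called, and 30 higher and 1 lower in LSD1-mKO, where the share of all genes called was 29%. With the ribosomal protein covariate, 3 of the 27 calls in LSD1-mKO were lost, those of *Cs*, *Pdha1* and *Dlat*, and 8 other genes were called. The ribosomal protein level was 7.15 to 7.95 in LSD1-mKO Gas and 6.67 to 6.86 in LSD1-mKO Sol, without overlap. In LSD1-mKO 3 of the 4 Schwann cell markers and 2 of the 3 neutrophil markers were called lower in Sol. Called higher were 1 of 5 endothelial, 1 of 5 fibroblast and 1 of 4 macrophage markers. All 5 endothelial and 4 of the 5 fibroblast markers lay above 0, 3 of each at an unadjusted p under 0.05. Of the macrophage markers 3 lay below 0. The part of these cell types in the values was not tested.

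**Figure D2:**
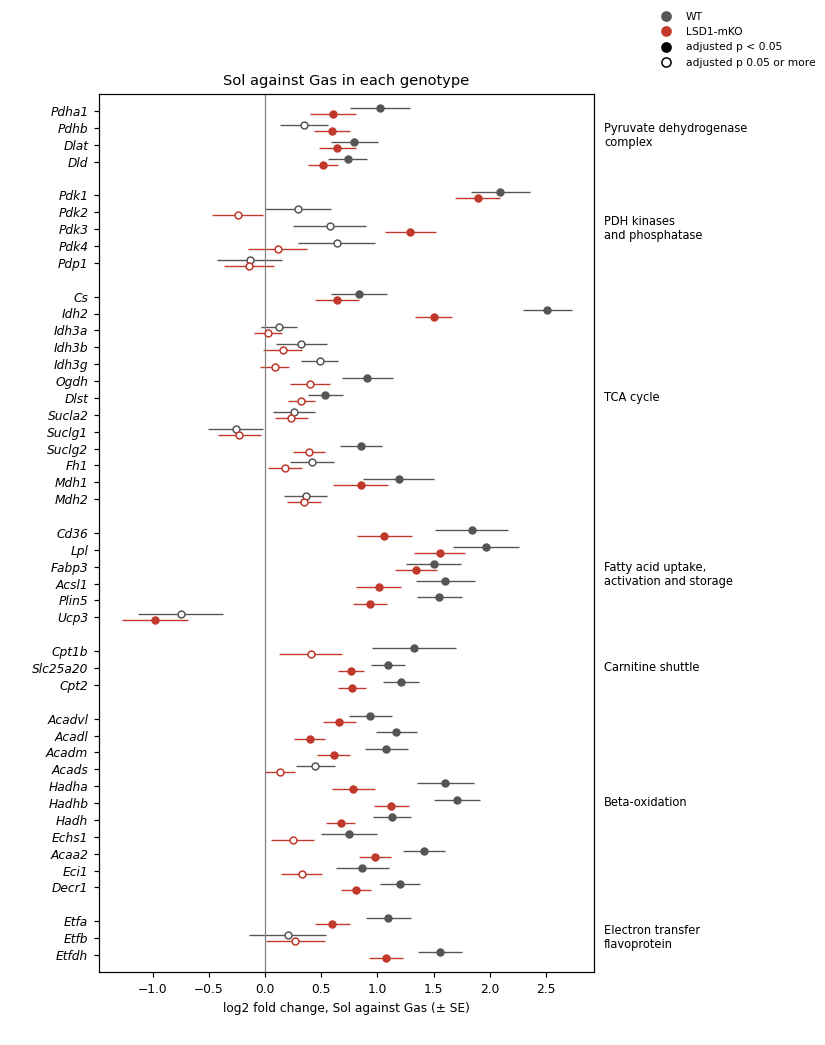
Log2 fold change of Sol over Gas for each of the 45 genes, by role, in WT and in LSD1-mKO, with bars of 1 SE; filled points have an adjusted p under 0.05. Most points lie to the right of 0 in both genotypes, *Idh2* farthest in WT at 2.51, and *Ucp3* lies to the left in both.

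The second question was how the loss of LSD1 in fibers bore on these genes in each Dex-treated muscle. In Gas, the test of LSD1-mKO against WT called 0 of the 45 genes, and 4 (0.0307%) of the 13040 genes tested. At an unadjusted p under 0.05 stood 5 of the 45, all higher in LSD1-mKO, beside 9.06% of all genes (4.75% higher and 4.31% lower). DESeq2 called 1 of the 45 (*Idh2*) among 132 genes, limma voom with library weights 2 (*Idh2* and *Pdk3*) among 340, and edgeR's exact test 0 among 104. The libraries of the genotypes did not overlap for 9 of the 45, all higher in LSD1-mKO (6.94% of all genes did not overlap, 4.41% higher and 2.53% lower): *Pdk1*, *Pdk3*, *Idh2*, *Suclg2*, *Plin5*, *Slc25a20*, *Cpt2*, *Acadl* and *Hadh*. The median log2 fold change of the 45 was 0.02, beside 0.01 for all genes, with 24 above 0 and 21 below (48.8% of all genes were below). The fast fiber markers summed to between 145400 and 169300 CPM in WT Gas and between 106600 and 147500 in LSD1-mKO Gas, and the slow fiber markers to between 777 and 1434 and between 1239 and 2093. The adipocyte markers summed to between 239 and 737 CPM in WT Gas and between 178 and 371 in LSD1-mKO Gas. The fibroblast markers summed to between 1122 and 1532 CPM in WT Gas and between 783 and 924 in LSD1-mKO Gas, without overlap, and all 5 had a log2 fold change below 0 in LSD1-mKO, none of them called. The part of these cell types in the values was not tested. Without WT Gas 3, 0 of the 45 were called among 7 genes, and the median was 0.05, beside 0.04 for all genes.

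In Sol, the test called 1 of the 45 genes, *Pdk3*, which rose in LSD1-mKO, and 129 (0.967%) of the 13342 genes tested, 0.787% higher and 0.18% lower. No gene of the 45 was called lower, although 41 of the 45 had a log2 fold change below 0, beside 51.8% of all genes, and the median of the 45 was -0.35, beside -0.01. At an unadjusted p under 0.05 stood 18 lower and 2 higher, beside 6.84% and 8.66% of all genes (15.5% in all). The libraries did not overlap for 14 lower genes (4.59% of all genes) and 2 higher ones (6.27%), 16 in all (10.9%). Other tools called more: DESeq2 called *Pdk3* and, as lower, *Dld*, *Mdh1*, *Acadm*, *Hadhb*, *Etfa*, *Echs1*, *Eci1* and *Lpl*, among 605 genes in all. LSD1-mKO Sol 1 held the lowest fast fiber marker sum of the Sol libraries, 27570 CPM beside 54080 to 63460 in WT Sol and up to 61120 in its own group. Without the 3 libraries that stood apart, 0 of the 45 were called (68 genes, 0.507%), 17 lower and 2 higher stood at an unadjusted p under 0.05, beside 5.45% and 7.76% of all genes, and the median was -0.22, beside 0.0023 for all genes. The 6 adipocyte markers, of which none was at 0 reads in any library, summed to between 154 and 567 CPM in WT Sol and between 116 and 284 in LSD1-mKO Sol. In the same order the 5 endothelial markers summed to between 362 and 544 and between 356 and 485, and the 4 macrophage markers to between 36.3 and 41.5 and between 29.5 and 82.7. The 5 fibroblast markers summed to between 769.5 and 1130 and between 489.7 and 1606, and the slow fiber markers to between 23390 and 25640 and between 19620 and 25650. In LSD1-mKO Sol 4 of 4 macrophage and 4 of 5 fibroblast markers lay above 0, and 5 of 6 adipocyte and 5 of 5 endothelial markers below. At an unadjusted p under 0.05 stood 2 macrophage markers, higher, and 2 adipocyte markers, lower, with 1 fibroblast marker in each direction. None of these markers was called. *Ucp1*, a defining gene of brown fat, was at 0 reads in 15 of the 16 libraries. *Cidea*, the other brown fat marker followed, was called higher in Sol than in Gas, by 1.95 in WT and 1.23 in LSD1-mKO. Between genotypes *Cidea* stood at 1.09 in Gas, with an unadjusted p under 0.05, and at 0.35 in Sol, and was called in neither. The part of these cell types in the values was not tested.

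**Figure D3:**
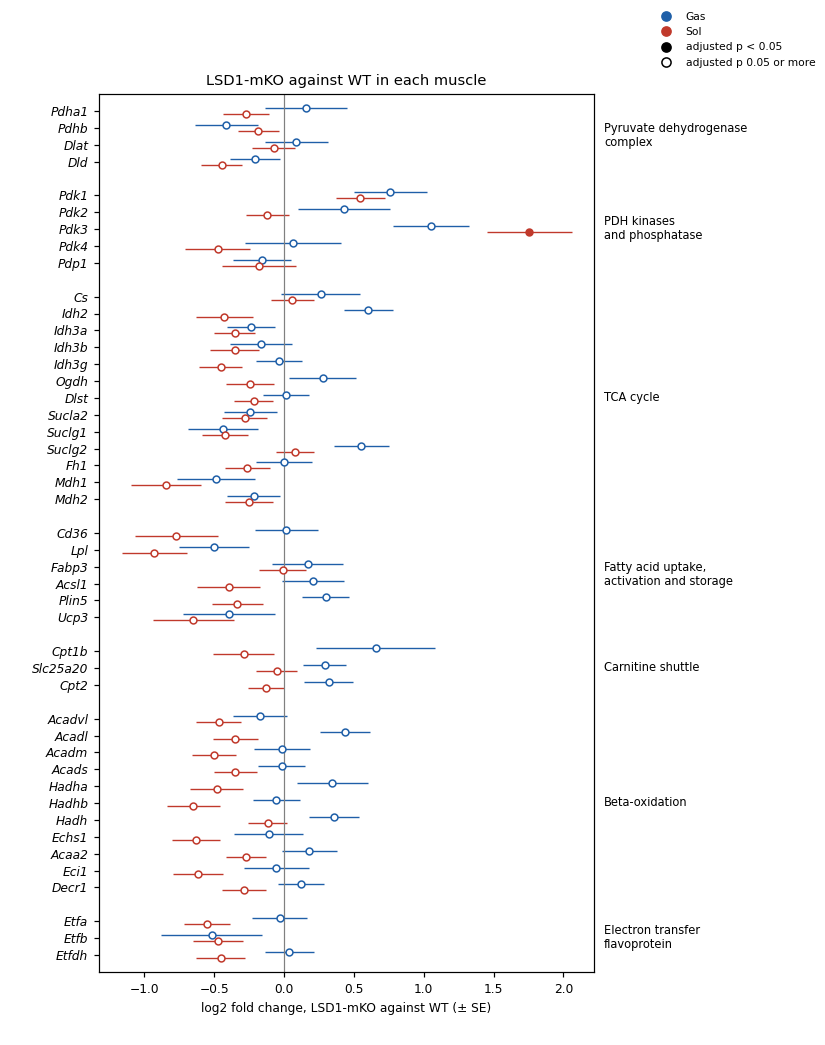
Log2 fold change of LSD1-mKO over WT for each of the 45 genes, by role, in Gas and in Sol, with bars of 1 SE; filled points have an adjusted p under 0.05. In Gas the points lie on both sides of 0, in Sol 41 of 45 lie below 0, and *Pdk3* in Sol, at 1.76, is the 1 filled point.

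**Figure D4:**
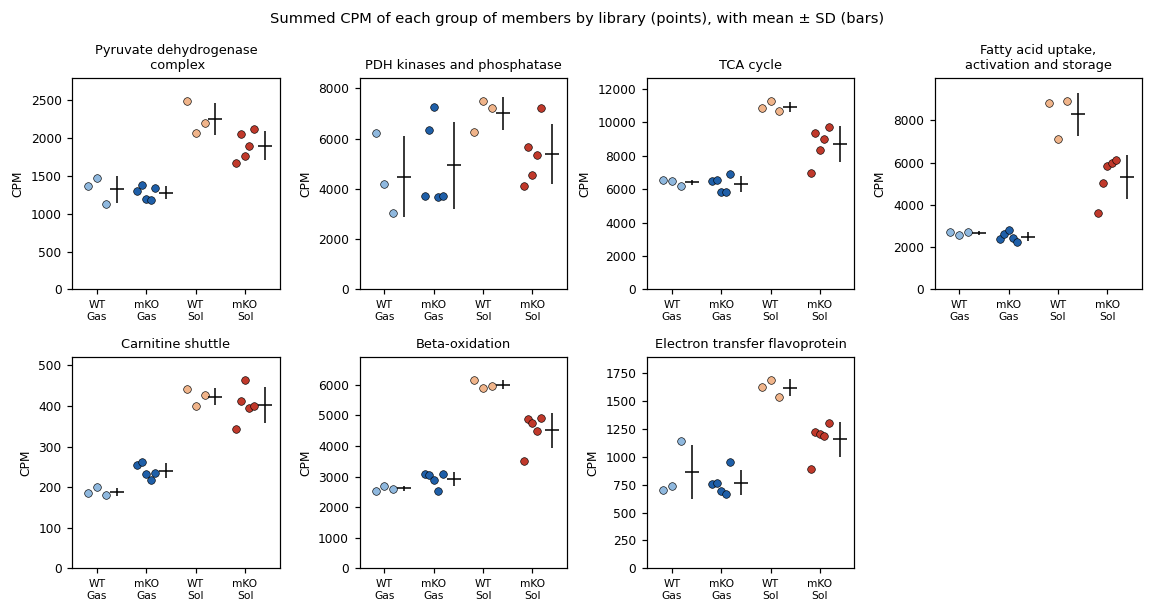
Summed CPM of the genes of each of the 7 roles by library, with mean and SD of each group; each panel has its own axis from 0. The sums of the TCA cycle, of fatty acid uptake, activation and storage, of beta-oxidation and of the electron transfer flavoprotein were higher in every WT Sol library than in every LSD1-mKO Sol library. The Sol sums of the other roles overlapped between genotypes.

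At the entry of pyruvate, the 4 subunits of the pyruvate dehydrogenase complex summed to 1320 ± 177 CPM in WT Gas (SD, n = 3), 1278 ± 84.3 in LSD1-mKO Gas (n = 5), 2252 ± 212 in WT Sol (n = 3) and 1898 ± 188 in LSD1-mKO Sol (n = 5). *Pdha1*, the catalytic E1 alpha subunit, was higher in Sol by 1.02 on the log2 scale in WT (SE 0.269, adjusted p = 0.0150 by the same edgeR test). In LSD1-mKO the difference was 0.61 (adjusted p = 0.0413), and with libraries of the same genotype and number as blocks it missed the threshold (0.60, adjusted p = 0.0661). WT Gas 3 had 191 CPM of *Pdha1*, beside 447 to 568 in the other Gas libraries. The WT call of *Pdha1* was lost without WT Sol 1 (adjusted p = 0.0805) or WT Sol 3 (0.0574), and with the ribosomal protein covariate the value was 0.43 (adjusted p = 0.226) in WT and 0.20 (0.388) in LSD1-mKO. Its call in LSD1-mKO held in only 5 of 16 fits with 1 library left out (adjusted p up to 0.0921). *Dlat*, the E2 acetyltransferase, was higher in Sol by 0.80 in WT, a call lost without WT Gas 3 (adjusted p = 0.0629) or WT Sol 1 (0.114), and by 0.65 in LSD1-mKO. With the ribosomal protein covariate the values of *Dlat* were 0.43 (adjusted p = 0.203) and 0.42 (0.0522). *Dld*, the E3 dehydrogenase shared with other complexes, was higher in Sol by 0.74 and 0.52. Its WT call was lost on the WT libraries alone (0.73, adjusted p = 0.0890 by the same edgeR test). *Pdhb*, the E1 beta subunit, differed by 0.35 in WT, which missed the threshold, and was higher in Sol by 0.60 in LSD1-mKO (adjusted p = 0.0137). Between genotypes, *Dld* had no overlap in Sol, with 606, 561 and 544 CPM in WT and 362, 462, 375, 434 and 485 in LSD1-mKO. LSD1-mKO stood at -0.44 there on the log2 scale (SE 0.146, adjusted p = 0.179), and at -0.21 in Gas, where the groups overlapped. The other subunits in Sol lay between -0.27 and -0.08, and in Gas *Pdhb* stood lowest at -0.41 (adjusted p = 0.566).

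The 4 pyruvate dehydrogenase kinases, which switch the complex off, differed from each other in pattern. *Pdk3* had the lowest level of the 4, with 1.70, 1.32 and 1.04 CPM in WT Gas, 2.88, 3.40, 2.16, 2.89 and 3.29 in LSD1-mKO Gas, 1.55, 2.08 and 2.61 in WT Sol and 10.6, 8.39, 5.04, 5.90 and 5.57 in LSD1-mKO Sol. Every LSD1-mKO library lay above every WT library of its muscle. In Sol LSD1-mKO over WT came to 1.76 on the log2 scale (SE 0.303, adjusted p = 0.0256) and in Gas 1.05 (SE 0.274, unadjusted p = 0.00302, adjusted p = 0.339). The call in Sol rests on 29 to 45 reads per library in WT and 107 to 307 in LSD1-mKO. It was lost without WT Sol 1 (adjusted p = 0.0937), WT Sol 2 (0.0917), WT Sol 3 (0.0869) or LSD1-mKO Sol 2 (0.0745), while the log2 fold change stayed between 1.58 and 1.97. Against Gas, *Pdk3* was higher in LSD1-mKO Sol by 1.30 (SE 0.226, adjusted p = 0.000499), and in WT the difference of 0.58 did not pass the test.

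*Pdk1*, the kinase best known as a target of hypoxia signalling, stood at 60.5, 65.4 and 36.1 CPM in WT Gas, 133, 105, 69.3, 81.7 and 79.4 in LSD1-mKO Gas, 254, 165 and 278 in WT Sol and 358, 389, 335, 284 and 346 in LSD1-mKO Sol. It was the 1 kinase called higher in Sol in both genotypes, 4.27-fold in WT (log2 2.09, SE 0.260, adjusted p = 4.42e-05) and 3.72-fold in LSD1-mKO (log2 1.89, SE 0.200, adjusted p = 4e-06). Every LSD1-mKO library again lay above every WT library of its muscle. The log2 fold changes between genotypes, 0.76 in Gas (SE 0.259, unadjusted p = 0.0144, adjusted p = 0.471) and 0.55 in Sol (SE 0.178, unadjusted p = 0.0103, adjusted p = 0.174), did not pass the adjusted test.

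*Pdk4* had 5594, 3535 and 2804 CPM in WT Gas, 2916, 5632, 6622, 3039 and 3078 in LSD1-mKO Gas, 5475, 6827 and 6396 in WT Sol and 3299, 4794, 3655, 4661 and 6286 in LSD1-mKO Sol. The groups overlapped in every comparison, and within Gas the libraries of 1 genotype differed by as much as the genotypes did. Its log2 fold change between genotypes was 0.06 in Gas (SE 0.345) and -0.48 in Sol (SE 0.231, adjusted p = 0.357). *Pdk2*, the kinase expressed in most tissues, had 525, 529 and 156 CPM in WT Gas and 503 to 628 in LSD1-mKO Gas, so that WT Gas 3 alone was low. In Sol it had 505, 460 and 517 CPM in WT and 370 to 539 in LSD1-mKO, with a log2 fold change of -0.12 (SE 0.155). Sol over Gas was 0.30 for *Pdk2* in WT and -0.24 in LSD1-mKO, neither of which was called. *Pdp1*, a phosphatase that switches the complex on, ranged from 19.8 to 58.4 CPM over the 16 libraries. It was lower in Sol than in Gas by -0.14 in each genotype and was not called in either.

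**Figure D5:**
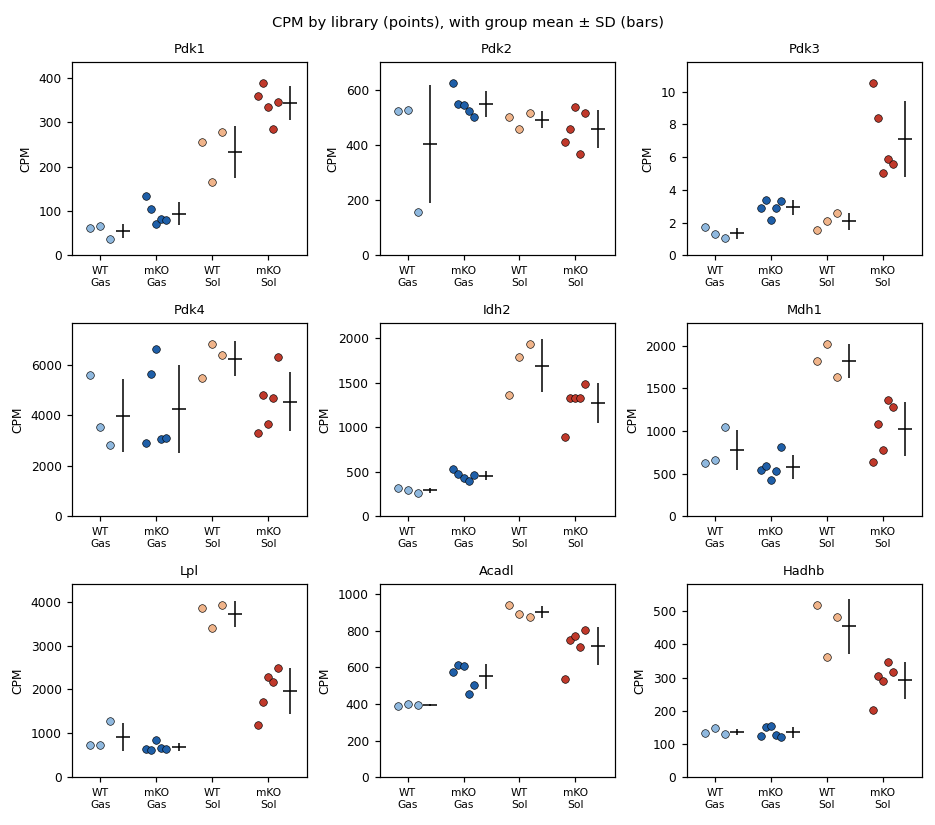
CPM of *Pdk1*, *Pdk2*, *Pdk3*, *Pdk4*, *Idh2*, *Mdh1*, *Lpl*, *Acadl* and *Hadhb* in each of the 16 libraries by group, with mean and SD; each panel has its own axis from 0. *Pdk1* and *Pdk3* are higher in every LSD1-mKO library than in every WT library of the same muscle, *Idh2* and *Acadl* only in Gas, and *Mdh1*, *Lpl*, *Acadl* and *Hadhb* are lower in every LSD1-mKO Sol library than in every WT Sol library.

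The 13 TCA cycle genes summed to 6393 ± 174 CPM in WT Gas, 6301 ± 475 in LSD1-mKO Gas, 10920 ± 300.1 in WT Sol and 8664 ± 1079 in LSD1-mKO Sol (SD, n = 3 and 5). *Idh2*, which makes NADPH in the mitochondrion, stood at 316, 299 and 262 CPM in WT Gas, 527, 470, 428, 394 and 465 in LSD1-mKO Gas, 1357, 1785 and 1938 in WT Sol and 885, 1328, 1334, 1332 and 1491 in LSD1-mKO Sol. All Sol libraries lay above all Gas libraries, LSD1-mKO Gas lay above WT Gas without overlap, and in Sol the genotypes overlapped. The difference of Sol over Gas was 5.71-fold in WT (log2 2.51, SE 0.215, adjusted p = 1.61e-06), the largest among the 45 genes, and 2.83-fold in LSD1-mKO (SE 0.161 on the log2 scale, adjusted p = 4.78e-06). Between genotypes it was 0.60 in Gas (SE 0.177, unadjusted p = 0.00646, adjusted p = 0.418) and -0.43 in Sol (SE 0.201, adjusted p = 0.340).

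*Mdh1*, the cytosolic malate dehydrogenase of the malate-aspartate shuttle, stood at 625, 659 and 1049 CPM in WT Gas, 542, 589, 422, 526 and 807 in LSD1-mKO Gas, 1824, 2024 and 1628 in WT Sol and 632, 1079, 781, 1362 and 1287 in LSD1-mKO Sol. Sol exceeded Gas by 1.19 in WT (adjusted p = 0.0159) and 0.85 in LSD1-mKO (adjusted p = 0.0168), calls lost without WT Gas 1 (1.03, adjusted p = 0.0621) and without LSD1-mKO Sol 4 (0.71, adjusted p = 0.0521). In Sol the genotypes did not overlap and LSD1-mKO stood at -0.84 on the log2 scale (SE 0.248, adjusted p = 0.134), and in Gas it was -0.49 (adjusted p = 0.572). *Ogdh*, the first subunit of the 2-oxoglutarate dehydrogenase complex, was higher in Sol by 0.91 in WT (adjusted p = 0.0113), a call lost without WT Sol 1 (adjusted p = 0.0714) or WT Sol 3 (0.0593) and with the ribosomal protein covariate (0.33, adjusted p = 0.219). *Suclg2*, the GTP-specific beta subunit of succinyl-CoA ligase, was higher in Sol by 0.85 in WT (adjusted p = 0.00467), and by 0.60 with that covariate, which ended the call (adjusted p = 0.0685). *Cs*, citrate synthase, which opens the cycle, was higher in Sol by 0.83 in WT (adjusted p = 0.0305) and 0.64 in LSD1-mKO (adjusted p = 0.0225). WT Gas 3 held 305 CPM of *Cs*, beside 621 to 867 in the other Gas libraries, and without it the WT value of *Cs* was 0.51 (adjusted p = 0.0753). The WT call of *Cs* was lost as well without WT Sol 1 (0.72, adjusted p = 0.146) or WT Sol 3 (0.82, adjusted p = 0.101), and its call in LSD1-mKO held in 10 of 16 fits with 1 library left out (adjusted p up to 0.0649). With the ribosomal protein covariate the value of *Cs* was 0.23 in WT (adjusted p = 0.465) and 0.25 in LSD1-mKO (0.188). *Suclg1*, the alpha subunit of succinyl-CoA ligase, was the 1 TCA cycle gene with a higher level in Gas, by -0.26 in WT and -0.23 in LSD1-mKO as Sol over Gas, and was not called in either.

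Between genotypes, *Suclg2* had 42.6, 36.3 and 26.0 CPM in WT Gas and 61.7, 60.4, 51.3, 43.8 and 45.7 in LSD1-mKO Gas, without overlap and 0.55 apart on the log2 scale (SE 0.197, unadjusted p = 0.0182, adjusted p = 0.487), and in Sol it differed by 0.08. In Sol, *Idh3a* and *Idh3g*, the catalytic alpha and the regulatory gamma subunit of the NAD-dependent isocitrate dehydrogenase, had no overlap and log2 fold changes of -0.35 (SE 0.147, adjusted p = 0.278) and -0.45 (SE 0.155, adjusted p = 0.196). *Suclg1* stood at -0.42 in Sol with overlap. Of the 13 genes 11 were below 0 in Sol and 8 in Gas, and the medians were -0.28 and -0.04.

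In fatty acid uptake, activation and storage, the 6 genes summed to 2676 ± 78.9 CPM in WT Gas, 2498 ± 224 in LSD1-mKO Gas, 8288 ± 1006 in WT Sol and 5323 ± 1057 in LSD1-mKO Sol (SD, n = 3 and 5). *Lpl*, lipoprotein lipase, which is also made by adipocytes, had 733, 742 and 1293 CPM in WT Gas, 635, 616, 841, 657 and 651 in LSD1-mKO Gas, 3843, 3391 and 3927 in WT Sol and 1182, 1713, 2273, 2179 and 2498 in LSD1-mKO Sol. Every WT Sol library lay above every LSD1-mKO Sol library, and all but 1 of the Sol libraries lay above all Gas libraries. The log2 fold change of LSD1-mKO over WT in Sol was -0.93 (SE 0.233, unadjusted p = 0.00198, adjusted p = 0.0890), the lowest of the 45 genes, and in Gas it was -0.50 (SE 0.253, adjusted p = 0.555). Sol exceeded Gas 3.91-fold in WT (log2 1.97, SE 0.294, adjusted p = 0.000248) and by a log2 of 1.55 in LSD1-mKO.

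*Cd36*, the fatty acid translocase, which endothelial cells also express, had 554, 676 and 475 CPM in WT Gas, 461, 622, 742, 669 and 458 in LSD1-mKO Gas, 2458, 1356 and 2371 in WT Sol and 637, 1137, 1063, 1676 and 1555 in LSD1-mKO Sol. The genotypes overlapped in both muscles, since WT Sol 2 was low for its group. LSD1-mKO stood at -0.77 on the log2 scale in Sol (SE 0.298, adjusted p = 0.246) and at 0.02 in Gas, and Sol exceeded Gas by 1.84 in WT (adjusted p = 0.000937) and 1.06 in LSD1-mKO. *Acsl1*, the main acyl-CoA synthetase of muscle, was higher in Sol by 1.61 in WT and 1.01 in LSD1-mKO, and *Fabp3* 2.83-fold and 2.54-fold, with a log2 fold change between genotypes in Sol of -0.01 for *Fabp3*. *Plin5*, which ties lipid droplets to mitochondria, was higher in Sol by 1.55 and 0.94, and between genotypes it had no overlap in Gas, with 95.4, 96.5 and 75.9 CPM in WT and 120, 133, 104, 98.7 and 108 in LSD1-mKO (log2 fold change 0.30, SE 0.168, adjusted p = 0.572).

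*Ucp3*, the uncoupling protein of muscle mitochondria, went the other way between muscles. It had 742, 355 and 200 CPM in WT Gas, 345, 377, 363, 300 and 284 in LSD1-mKO Gas, 150, 388 and 231 in WT Sol and 135, 131, 150, 172 and 244 in LSD1-mKO Sol. In LSD1-mKO all Sol libraries lay below all Gas libraries, and *Ucp3* was called lower in Sol (log2 fold change -0.98, SE 0.295, adjusted p = 0.0223), a call that was lost without LSD1-mKO Sol 1 (-0.94, adjusted p = 0.0503) or LSD1-mKO Sol 2 (-0.93, adjusted p = 0.0549). In WT the muscles overlapped, and the value of -0.75 (SE 0.379, adjusted p = 0.185) did not pass the test. *Ucp3* was called lower in WT Sol by limma voom, without WT Sol 2 and without the 3 libraries that stood apart. With 1 library left out its WT value ran from -1.19 to -0.14. The genotypes overlapped in Sol, where the value was -0.65 (SE 0.291, adjusted p = 0.315), and in Gas, where it was -0.40.

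The 3 genes of the carnitine shuttle summed to 189 ± 9.57 CPM in WT Gas, 240.2 ± 18.2 in LSD1-mKO Gas, 423 ± 21.5 in WT Sol and 402.5 ± 43.4 in LSD1-mKO Sol (SD, n = 3 and 5). The Gas sums of the genotypes did not overlap, with 181 to 199 CPM in WT and 217 to 262 in LSD1-mKO. *Cpt2*, the carnitine palmitoyltransferase of the inner membrane, had 67.3, 76.4 and 73.3 CPM in WT Gas, 105, 107, 81.0, 80.0 and 93.2 in LSD1-mKO Gas, 182, 152 and 177 in WT Sol and 134, 164, 162, 165 and 160 in LSD1-mKO Sol. *Slc25a20*, the carrier of acylcarnitine across that membrane, had 115, 120 and 107 CPM in WT Gas and 147, 151, 148, 135 and 138 in LSD1-mKO Gas. For both genes LSD1-mKO Gas lay above WT Gas without overlap, with log2 fold changes of 0.32 (SE 0.174, adjusted p = 0.566) and 0.29 (SE 0.151, adjusted p = 0.555), neither of which passed the test. In Sol the genotypes overlapped for both, at -0.13 and -0.05. Against Gas, *Cpt2* was higher in Sol by 1.21 in WT and 0.77 in LSD1-mKO, *Slc25a20* by 1.09 and 0.77, and *Cpt1b*, with its few reads, by 1.33 in WT (adjusted p = 0.0224), a call lost without WT Sol 1 (1.11, adjusted p = 0.124) or WT Sol 3 (1.32, adjusted p = 0.0713) and with the ribosomal protein covariate (0.53, adjusted p = 0.375). Between genotypes *Cpt1b* stood at 0.66 in Gas and -0.29 in Sol and was not called.

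The 11 genes of beta-oxidation summed to 2612 ± 82.1 CPM in WT Gas, 2930 ± 234 in LSD1-mKO Gas, 6007 ± 137 in WT Sol and 4507 ± 583 in LSD1-mKO Sol (SD, n = 3 and 5). In Sol the sums ran from 5895 to 6159 in WT and from 3510 to 4911 in LSD1-mKO. All 11 had a log2 fold change below 0 in Sol, with a median of -0.47 and a range from -0.65 to -0.12, but none was called. In Gas the median was -0.01, with 5 above 0 and 6 below.

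*Hadhb*, the beta subunit of the mitochondrial trifunctional protein, had 132, 148 and 131 CPM in WT Gas, 124, 153, 154, 129 and 120 in LSD1-mKO Gas, 519.5, 362 and 484 in WT Sol and 202, 304, 289, 348 and 318 in LSD1-mKO Sol. WT Sol lay above LSD1-mKO Sol without overlap, and LSD1-mKO over WT was -0.65 (SE 0.188, unadjusted p = 0.00520, adjusted p = 0.129), while the Gas groups overlapped at -0.06. Sol exceeded Gas 3.27-fold in WT (log2 1.71, SE 0.205, adjusted p = 3.29e-05) and by 1.13 in LSD1-mKO. *Hadha*, the alpha subunit, whose gene lies head to head with *Hadhb*, had 391, 428 and 186 CPM in WT Gas, 434, 481, 477, 426 and 351 in LSD1-mKO Gas, 1147, 795 and 1127 in WT Sol and 530.5, 809, 803, 805 and 740.2 in LSD1-mKO Sol. WT Gas 3 was the lowest library for *Hadha*, and in Sol the genotypes overlapped through WT Sol 2. Its values were 0.35 in Gas and -0.48 in Sol between genotypes (adjusted p = 0.246), and Sol exceeded Gas by 1.61 in WT.

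*Acadl*, the long-chain acyl-CoA dehydrogenase, had 389, 399 and 395 CPM in WT Gas, 576, 614, 606, 453 and 504 in LSD1-mKO Gas, 941, 891 and 875 in WT Sol and 539, 750.1, 772, 711 and 804 in LSD1-mKO Sol. The genotypes did not overlap in either muscle, and LSD1-mKO was the higher in Gas and the lower in Sol. The log2 fold changes were 0.44 in Gas (SE 0.182, unadjusted p = 0.0369, adjusted p = 0.541) and -0.35 in Sol (SE 0.161, unadjusted p = 0.0520, adjusted p = 0.328). Sol exceeded Gas by 1.17 in WT (adjusted p = 0.000332) and by 0.40 in LSD1-mKO (adjusted p = 0.0447). The call in LSD1-mKO was lost with libraries of the same genotype and number as blocks (0.39, adjusted p = 0.0889). It held in only 3 of 16 fits with 1 library left out (adjusted p up to 0.129). *Acadm*, the medium-chain acyl-CoA dehydrogenase and the gene with the half-site shown above, had 742, 794 and 752 CPM in WT Sol and 428, 575, 580.2, 515 and 629 in LSD1-mKO Sol, without overlap (log2 fold change -0.50, SE 0.156, adjusted p = 0.156). In Gas *Acadm* ranged from 292 to 418 CPM over both genotypes, which overlapped, at -0.01.

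*Echs1*, the enoyl-CoA hydratase, and *Eci1*, the enoyl-CoA isomerase, had the next lowest values after *Hadhb* in Sol, -0.63 (SE 0.171, adjusted p = 0.109) and -0.62 (SE 0.176, adjusted p = 0.124). *Echs1* had 230.1, 300.4 and 260 CPM in WT Sol and 129, 165, 192, 170 and 207 in LSD1-mKO Sol, and *Eci1* 310.4, 431 and 325 in WT Sol and 197, 256, 275, 192 and 255 in LSD1-mKO Sol. Neither gene overlapped between genotypes in Sol. *Acadvl* and *Acads*, the very long-chain and short-chain acyl-CoA dehydrogenases, had no overlap in Sol either, at -0.47 (SE 0.161) and -0.35 (SE 0.152). In Gas, *Hadh*, the short-chain hydroxyacyl-CoA dehydrogenase, had no overlap, with 167, 172 and 156 CPM in WT and 257, 238, 181, 192 and 218 in LSD1-mKO (log2 fold change 0.36, SE 0.180, adjusted p = 0.555). Between muscles, *Acaa2*, the thiolase of the last step, was higher in Sol by 1.41 in WT and 0.98 in LSD1-mKO, and *Decr1*, which prepares unsaturated fatty acids for the spiral, by 1.20 and 0.81. The calls of *Echs1* and *Eci1* as higher in WT Sol held in 9 and 13 of 16 fits with 1 library left out. Both were lost on the WT libraries alone (adjusted p = 0.144 and 0.102 by the same edgeR test).

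The electron transfer flavoprotein and its dehydrogenase, which hand the electrons of acyl-CoA dehydrogenases to ubiquinone, summed to 863 ± 241 CPM in WT Gas, 768 ± 111 in LSD1-mKO Gas, 1619 ± 75.8 in WT Sol and 1160 ± 157 in LSD1-mKO Sol (SD, n = 3 and 5). *Etfa*, the alpha subunit, had 249, 279 and 357 CPM in WT Gas, 298, 318, 283, 267 and 332 in LSD1-mKO Gas, 650.3, 663 and 631 in WT Sol and 332, 470.3, 433, 473 and 529 in LSD1-mKO Sol. The genotypes did not overlap in Sol (log2 fold change -0.55, SE 0.163, adjusted p = 0.137) and overlapped in Gas (-0.03). *Etfb*, the beta subunit, also had no overlap in Sol, at -0.47 (SE 0.179, adjusted p = 0.237), and WT Gas 3 held 649.7 CPM, beside 212 to 459 in the other Gas libraries. In Gas *Etfb* stood at -0.52 between genotypes (SE 0.361, adjusted p = 0.621), with overlap, and at 0.087 without the 3 libraries that stood apart. *Etfdh*, the ubiquinone oxidoreductase, was -0.45 in Sol with overlap (SE 0.175, adjusted p = 0.246). Against Gas, *Etfdh* was higher in Sol by 1.56 in WT (adjusted p = 5.33e-05) and 1.08 in LSD1-mKO, *Etfa* by 1.10 and 0.60, and *Etfb* was not called in either.

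The interaction of genotype and muscle asks whether the genotypes differed by more in 1 muscle than in the other, and is given as the log2 fold change of LSD1-mKO over WT in Sol minus that in Gas. Of the 13749 genes 0 (0%) were called, the lowest adjusted p being 0.164, and 671 (4.88%) stood at an unadjusted p under 0.05. Of the 45 genes 0 were called, and 7 stood at an unadjusted p under 0.05, all negative (2.03% of all genes were negative there): *Idh2* at -1.01 (SE 0.258, adjusted p = 0.565 by edgeR), *Acadl* at -0.77 (adjusted p = 0.667), *Hadha* at -0.82, *Plin5* at -0.62, *Hadhb* at -0.58, *Hadh* at -0.46 and *Cpt2* at -0.43. The median of the 45 was -0.40, beside 0.01 for all genes, and 41 lay below 0, beside 48.7% of all genes. *Pdk3* stood at 0.72 (SE 0.398, adjusted p = 0.987 by edgeR). Without the 3 libraries that stood apart, 0 of the 45 were called and 8 stood at an unadjusted p under 0.05, all negative, beside 2.18% of all genes negative and 2.96% positive there. By DESeq2, 1 of the 45, *Idh2*, was called among 21 genes, and by limma voom 2, *Idh2* and *Acadl*, among 103. The comparisons of the genotypes and of the muscles rest on the same 16 libraries, so that a gene high in WT Sol is at once lower in LSD1-mKO Sol and more different between the muscles in WT.

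Beyond the 45, a list of 59 other genes of pyruvate, TCA cycle and fatty acid metabolism was followed. None was called between genotypes in Gas or in Sol, where 0.0307% and 0.967% of all genes were called. At an unadjusted p under 0.05 stood 4 higher and 3 lower in Gas, beside 4.75% and 4.31% of all genes. In Sol 2 higher and 18 lower stood there, beside 8.66% and 6.84%, and 50 of the 59 were below 0, beside 51.8%. In Sol against Gas, 17 were called higher and 3 lower in WT, beside 8.75% and 8.25% of all genes. In LSD1-mKO 13 were called higher and 4 lower, beside 12.9% and 11.6%. The largest differences were those of *Bdh1*, a ketone body dehydrogenase (2.67 in WT and 2.51 in LSD1-mKO), and *Dgat2*, which makes triglyceride (2.33 and 1.53). Lower in Sol were *Pcx*, pyruvate carboxylase (-2.06 and -1.03), and *Acsl6*, another acyl-CoA synthetase (-1.49 and -1.08).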

How the data were processed

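Single-end reads of 75 bp from poly(A) RNA were mapped to mm10 by the authors (STAR) and, as the tables' headers show, assigned to the exons of an iGenomes UCSC annotation by featureCounts 1.5.2, without a named strand option and leaving out reads that matched several places or genes. The deposited tables hold raw counts of 24421 genes, 1 table per muscle, and 0 columns belonged to other samples. Deposited tables of the authors' own edgeR comparisons, with fold changes and p-values, were not used.

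The tests were run in R 4.3.3 with edgeR 4.0.16 (limma 3.58.1 for voom). Low genes were removed by filterByExpr (minimum count 10), and TMM gave the library scaling. LSD1-mKO was compared with WT in each muscle's 8 libraries, and Sol with Gas and the interaction in 1 fit of 4 groups over all 16, by a two-sided quasi-likelihood F-test. A gene was called at a Benjamini-Hochberg adjusted p under 0.05 over all genes tested. The size of the log2 fold change over the square root of F gave the SE. CPM of Gas and Sol share 1 TMM scale, and exon lengths are those of GENCODE for GRCm38, which may differ from the authors' annotation. The scripts were tested on simulated counts with known changes. Replicates of a group differed beyond sampling noise.

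The 45 genes, the other lists and the rules were chosen with earlier results of these data known. Genes named are *Kdm1a*, the 4 kinases, those called between genotypes, up to 3 per role with the lowest unadjusted p between genotypes, those without overlap between genotypes in a muscle, the 3 largest called differences per role between muscles, those higher in Gas, and, of the other 59 genes, the 2 largest differences between muscles in each direction.

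Gas and Sol libraries of the same genotype and number were checked for pairing by the correlation of their deviations from the group means, which was between 0.20 and 0.35 in the 5 LSD1-mKO pairs and 0.11, -0.49 and -0.24 in WT. Libraries of different number were not compared in this way. Gas libraries of WT and LSD1-mKO with the same number, which cannot be of 1 mouse, reached 0.29. The correlations therefore cannot show that the numbers pair the muscles, and the labels do not say so. Fits with the numbers as blocks are given only as an alternative. Alternatives were DESeq2 1.42.0, RLE scaling, counts without the filter, the edgeR exact test, limma voom with library quality weights, the mean ribosomal protein level as a covariate, the replicate number as a block, other sets of libraries in the fit, each library left out in turn and, chosen after seeing the data, the 3 libraries that stood apart left out.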

Additional observations from a re-analysis of the deposited data

Results flagged for a closer look

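In groups of 5 libraries, 104 values were examined for a library far from the rest, and 5 stood out. Chance would give about 5.2 (1 in 20) if the values were independent. They share the same libraries and are not independent, so that setting 5 beside 5.2 decides nothing about chance. LSD1-mKO Sol 1, which stood apart above, held every flag but that of *Lpl*. In LSD1-mKO Sol, replicate 1 was low for *Idh2*, with 885 CPM beside 1328 to 1491 in the other 4 libraries, for *Cpt2*, with 134 CPM beside 160 to 165, for *Hadha*, with 530 CPM beside 740.2 to 809, and for the summed electron transfer flavoprotein genes, with 890 CPM beside 1184 to 1302. In LSD1-mKO Gas, replicate 3 was high for *Lpl*, with 841 CPM beside 616 to 657.

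For *Acadl*, every LSD1-mKO library lay above every WT library in Gas and below every WT library in Sol. The difference between the muscles, tested as the interaction, was -0.77 on the log2 scale (unadjusted p = 0.00337, adjusted p = 0.667 by edgeR's quasi-likelihood test over 13749 genes), which missed the threshold.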

How the results depend on the processing

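Between genotypes in Gas, 4 genes were called as reported, 10 without the filter on low counts, 132 by DESeq2, 340 by limma voom, 104 by the exact test, 62 with all 16 libraries in 1 fit and 7 without the 3 libraries that stood apart, and of the 45 genes 0 were called except 1 by DESeq2 and 2 by limma voom. In Sol, 129 genes and 1 of the 45 became 336 and 2 without the filter, 605 and 9 by DESeq2, 730 and 9 by limma voom, 560 and 6 by the exact test, 295 and 2 with the ribosomal protein covariate, 412 and 2 with the replicate block, and 68 and 0 without the 3 libraries. For Sol against Gas in WT, 2337 genes and 30 of the 45 became 1011 and 19 on the WT libraries alone, and limma voom called 5599 genes. The interaction called 0 genes as reported, 21 by DESeq2, 103 by limma voom and 1 with the replicate block, and of the 45 genes 1 by DESeq2 and 2 by limma voom.

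With each library left out in turn, the genes called numbered 1 to 7 for Gas, 11 (without WT Sol 3) to 228 (without LSD1-mKO Sol 5) for Sol, 1132 (without WT Sol 1) to 2839 for the muscles in WT, 2618 to 4409 in LSD1-mKO and 0 to 1 for the interaction. In Sol the count was 13 without WT Sol 1, 23 without WT Sol 2, 35 without LSD1-mKO Sol 2 and 67 without LSD1-mKO Sol 3, and for the muscles in WT 1199 without WT Sol 3. Of the 45 genes, 0 to 0, 0 to 1, 23 to 31, 23 to 30 and 0 to 0 were called in the same order, and their median log2 fold change ran from 0.00 to 0.09, from -0.38 to -0.26, from 0.90 to 1.05, from 0.53 to 0.61 and from -0.45 to -0.33.

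Directions turned for genes that were not called. Between genotypes in Gas, *Etfa* was 0.00032 without the filter. In Gas, limma voom gave *Pdha1* -0.074, *Pdk4* -0.15, *Etfa* 0.17 and *Etfdh* -0.024, the ribosomal protein covariate *Pdha1* -0.030, *Pdk4* -0.18, *Etfa* 0.14, *Etfb* 0.024 and *Etfdh* -0.050, and leaving out the 3 libraries *Pdha1* -0.16, *Pdk4* -0.087, *Etfa* 0.19, *Etfb* 0.087 and *Etfdh* -0.044. In Sol, *Slc25a20* was 0.0094 without the 3 libraries. For the muscles in WT, *Pdp1* was 0.020 by limma voom, the covariate gave *Suclg1* 0.42, *Pdk2* -0.21 and *Pdp1* 0.054, and *Pdk2* was -0.042 without the 3 libraries. In LSD1-mKO the covariate gave *Suclg1* 0.17 and *Pdk4* -0.062, and *Pdp1* was 0.037 without the 3 libraries. With 1 library left out, 18 of the 45 genes took both signs in Gas, 5 in Sol, 3 between muscles in WT, 3 in LSD1-mKO and 10 for the interaction, none of them called. Of those named for the comparison, values ran in Gas from -0.70 to 0.22 for *Ucp3*, -0.15 to 0.36 for *Pdk4*, -0.16 to 0.43 for *Pdha1*, -0.16 to 0.19 for *Etfa*, -0.75 to 0.087 for *Etfb* and -0.044 to 0.17 for *Etfdh*. In Sol they ran from -0.14 to 0.023 for *Slc25a20*, between muscles in WT from -0.43 to 0.021 for *Suclg1* and -0.094 to 0.54 for *Pdk2*, and in LSD1-mKO from -0.034 to 0.31 for *Pdk4* and -0.31 to 0.010 for *Pdp1*. The cause was not tested for any of these.

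Between genotypes a shared replicate number cannot mark 1 mouse, and the correlations of deviations were -0.15 to 0.29 for Gas libraries and -0.0048 to 0.12 for Sol libraries. For Sol against Gas in LSD1-mKO the block called 25 of the 45 genes in place of 27 and, beside *Pdha1* and *Acadl*, ended no other call. Under RLE scaling no call of the 45 was lost except *Acadl* between the muscles in LSD1-mKO. With the longest transcript as the length, 5 of 20 levels per kilobase moved by more than 1 SD. By that length *Fabp3* ranked 4 in WT Gas and 3 in LSD1-mKO Gas, in place of 2 in each. *Pdk3* rests on 29 to 307 reads per Sol library and *Cpt1b* on 4 to 119 reads per library, which limits the precision of their values.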
